A study of Mus musculus with 12 samples.

Results

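The 35 genes described here mark the endothelial cells that line blood vessels, with pan-endothelial, arterial and capillary markers among them. They were chosen by name, from what is known of these genes, and with earlier results of these data known. All 35 were found among the 35434 genes of the count table. All 35 also passed the filter on low counts, which left 15269 genes to test, so no member is missing from the counts below. The genes were measured by bulk RNA sequencing of subcutaneous tumours of 4T1, a mouse mammary carcinoma cell line, grown in female BALB/c mice aged 6 to 8 weeks at the start. Mice lived either at the ambient altitude of Lanzhou, about 1500 m, or in a hypobaric chamber set to 3500 m, and either received IOX2, an inhibitor of the HIF prolyl hydroxylases, or the vehicle alone. The 4 groups, of 3 tumours from 3 mice each, are MC (1500 m, vehicle), MI (1500 m, IOX2), HC (3500 m, vehicle) and HI (3500 m, IOX2). All mice carried 4T1 cells, were acclimatized for 3 days beforehand, and were injected into the peritoneum once daily, 10 times, from day 9 after inoculation, with IOX2 at 10 mg/kg or with vehicle. Tumours were taken on study day 22. The labels place mice at 3500 m in the chamber and mice at 1500 m in ordinary housing, so altitude and chamber housing cannot be told apart.

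Endothelial cells hold to each other through VE-cadherin, CD31 and claudin-5, and their identity is kept by transcription factors of the ETS family (ERG, FLI1) and the SOXF family (SOX7, SOX17, SOX18). The angiopoietin receptor TIE2 with its orphan partner TIE1, the sphingosine 1-phosphate receptor and the endothelial nitric oxide synthase govern vessel stability, barrier and tone. HIF prolyl hydroxylases mark the HIF transcription factors for degradation when oxygen is present, and HIF drives blood vessel growth in hypoxic tissue, which makes vessels a part of the tumour where altitude and IOX2 could both be read.

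Library totals ran from 31661685 counts in HC1 to 40019343 in MI2, and each member had at least 32 counts in every library. The defining markers of the tumour cells and of endothelium were present in every tumour, with summed levels of 8 epithelial markers between 2839 and 3959 CPM, counts scaled to library size by TMM. Of the IOX2 tumours at 1500 m, MI1 held genes of lymphatic and lymphoid tissue, with 58.9 CPM of Ccl21a against 0.324 to 5.79 in the other libraries and 27.4 CPM of Cd79a against 0.0779 to 0.355. HC1 had the highest summed adipocyte markers, 810.3 CPM, above HC2 at 635 and a lowest value of 62.5 in HI3. Medians over the 35 members are therefore given with and without these libraries where they moved, beside the values of named members that leaving out 1 library changed most. In bulk tumours, fewer endothelial cells and less RNA of these genes per cell cannot be told apart.

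Per unit of transcript length, in the deposited FPKM, which scales fragments by gene length and library total, the members spanned a wide range. Eng, a co-receptor for TGF-beta and BMP9, had the highest mean level over the 12 tumours, 59.5 FPKM. It was followed by Plvap (46.1), a component of fenestral diaphragms, Aqp1 (41.9), a water channel, Kank3 (32.4) and Pecam1 (30.6). At the low end stood Sox7 (1.19), Sox17 (0.633) and the arterial connexin gene Gja5 (0.440). Kank3 was below Aqp1 at 1500 m and level with it at 3500 m. It had 24.96 ± 2.89 FPKM in MC and 24.9 ± 3.48 in MI (SD, n = 3 each), where Aqp1 had 39.1 ± 1.59 and 44.2 ± 8.90. In HC and HI Kank3 had 45.1 ± 8.79 and 34.6 ± 7.06, within the spread of Aqp1 at 50.4 ± 14.3 and 34.0 ± 4.98. Pecam1 ran from 24.9 ± 1.01 FPKM in HI to 35.3 ± 6.84 in MI.

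**Figure D1:**
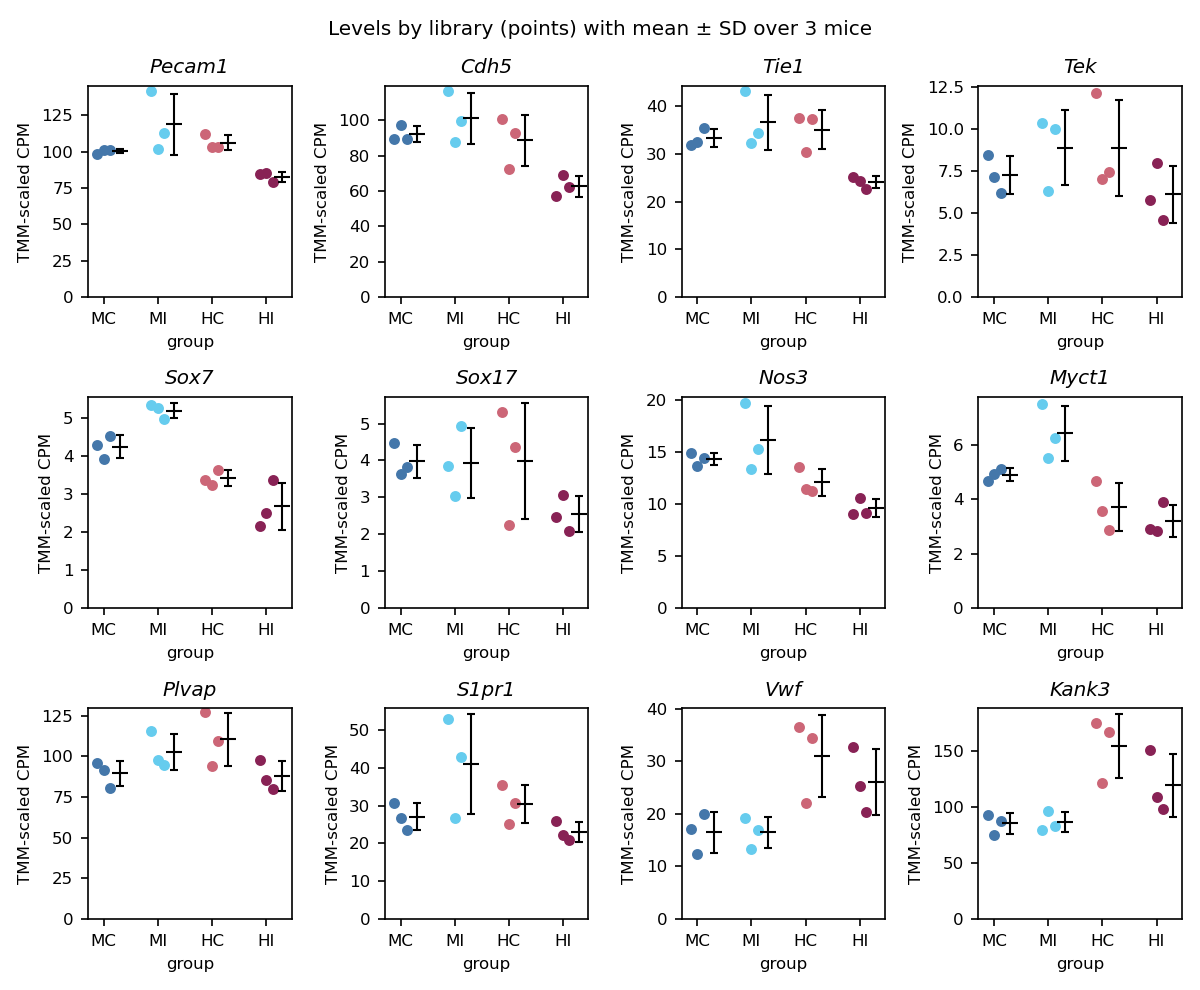
Levels in CPM (linear axes that start at 0) of 12 of the endothelial genes in each of the 12 tumours, grouped as MC, MI, HC and HI, with points for tumours and bars for mean ± SD (n = 3). Pecam1, Cdh5 and Tie1 are lowest in HI, while Vwf and Kank3 are higher in all 6 tumours at 3500 m than in all 6 at 1500 m.

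Most members were lowest in the tumours that had both altitude and IOX2. HI was the group with the lowest mean for 30 of the 35 members, and MI was the highest for 25. The counts of this paragraph were made for the members and not over all genes. In HI1, HI2 and HI3 only 7, 4 and 4 of the 35 members lay above their own median over the 12 tumours, against 16 to 32 in MI and 20 to 24 in MC. HC was uneven, with 24, 8 and 21. The difference in log2 CPM from the gene's mean over the 12 tumours, averaged over the 35 members, was −0.30, −0.26 and −0.37 in HI and −0.16 to 0.41 in the other 9 tumours.

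**Figure D2:**
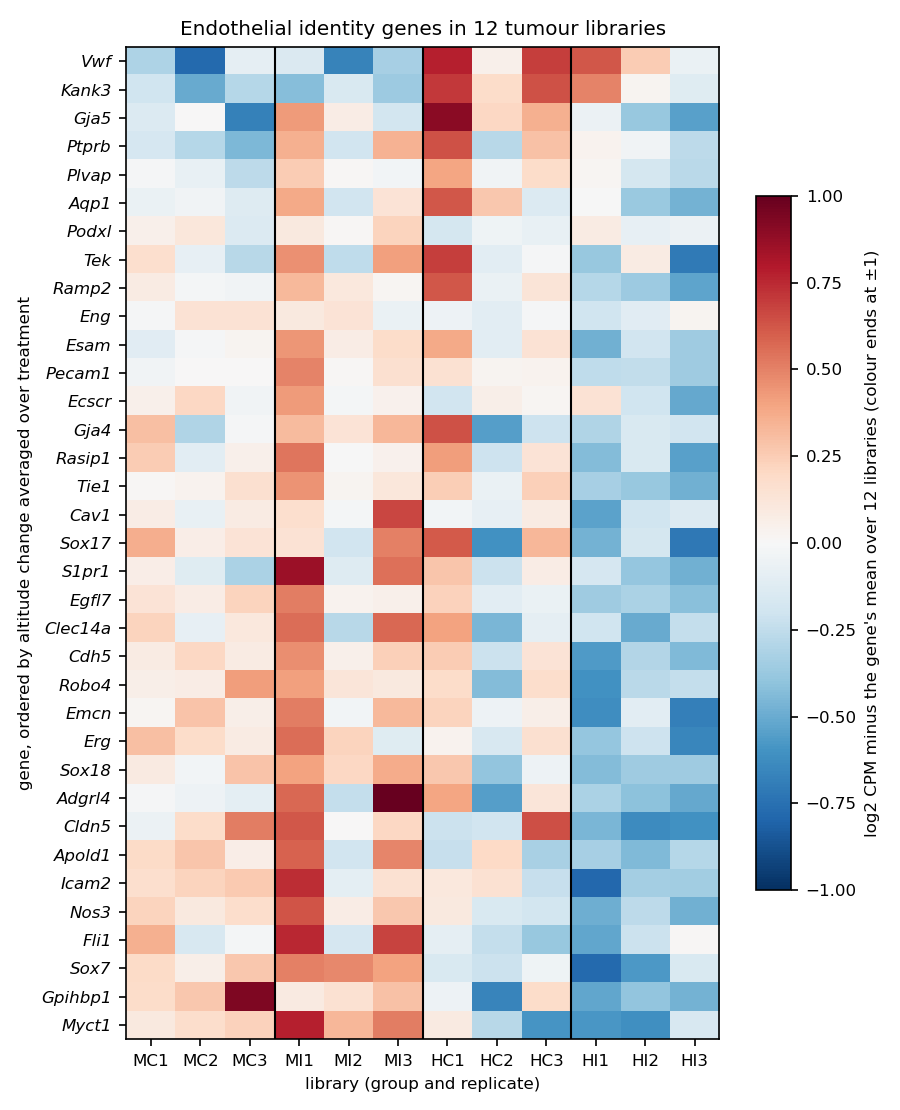
Log2 level of each of the 35 endothelial genes in each tumour relative to that gene's mean over the 12 tumours, with genes in rows, ordered by their altitude difference averaged over treatment, and tumours in columns by group. Colour ends at ±1. The HI columns are mostly below the mean, while Vwf and Kank3, in the top rows, are above it in all 3 HC tumours.

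Under IOX2, 33 of the 35 members had a fitted log2 difference below 0 at altitude (HI against MI), as did 52.2% of all genes, and 2 had one above 0, Vwf and Kank3. The median log2 difference of the members was −0.58, against −0.01 over all genes tested, and it ran from −1.001 for Myct1 to 0.66 for Vwf. No member passed edgeR's quasi-likelihood test with p-values adjusted over the 15269 genes (Benjamini-Hochberg, called below 0.05), and neither did any other gene (0%). At an unadjusted p under 0.05, 23 members were lower, where 8.43% of all genes were, and 2 were higher, where 6.77% were. The 3 HI tumours were below all 3 MI tumours for 22 members, against 6.61% of all genes, and above them for 2, against 8.02%. Leaving out MI1 moved the median to −0.49, and 33 members were below 0 under every alternative tried. The calls themselves turned on tool and tumour. DESeq2 called 16 members, among 379 of the 24312 genes in its fit. Without MI2, the MI tumour with the fewest members above their median, edgeR also called 16, among 520 of 15592 genes.

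Under vehicle, the members' differences with altitude went both ways. In HC against MC, 15 members had a fitted log2 difference above 0 and 20 below it, as had 52.2% of all genes, with a median of −0.05 against −0.01 over all genes. That median turned to 0.07 without HC2 and was −0.12 without HC1, −0.074 without HC3 and −0.022 without MC1. Neither a member nor any other gene was called by edgeR (0% of 15269), and with the replicate number as a block 13 genes but 0 members were. At an unadjusted p under 0.05, 5 members were higher, where 6.14% of all genes were, and 1 was lower, where 5.84% were. The groups did not overlap for 4 members that were higher in HC (Pecam1, Vwf, Gja5, Kank3) and 5 that were lower (Icam2, Eng, Sox7, Nos3, Myct1), against 10.3% and 11.4% of all genes. DESeq2 called 2 members, Kank3 and Vwf, both higher, among 307 of the 24312 genes in its fit. Without HI1, edgeR called Kank3, among 40 of 15548 genes.

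**Figure D3:**
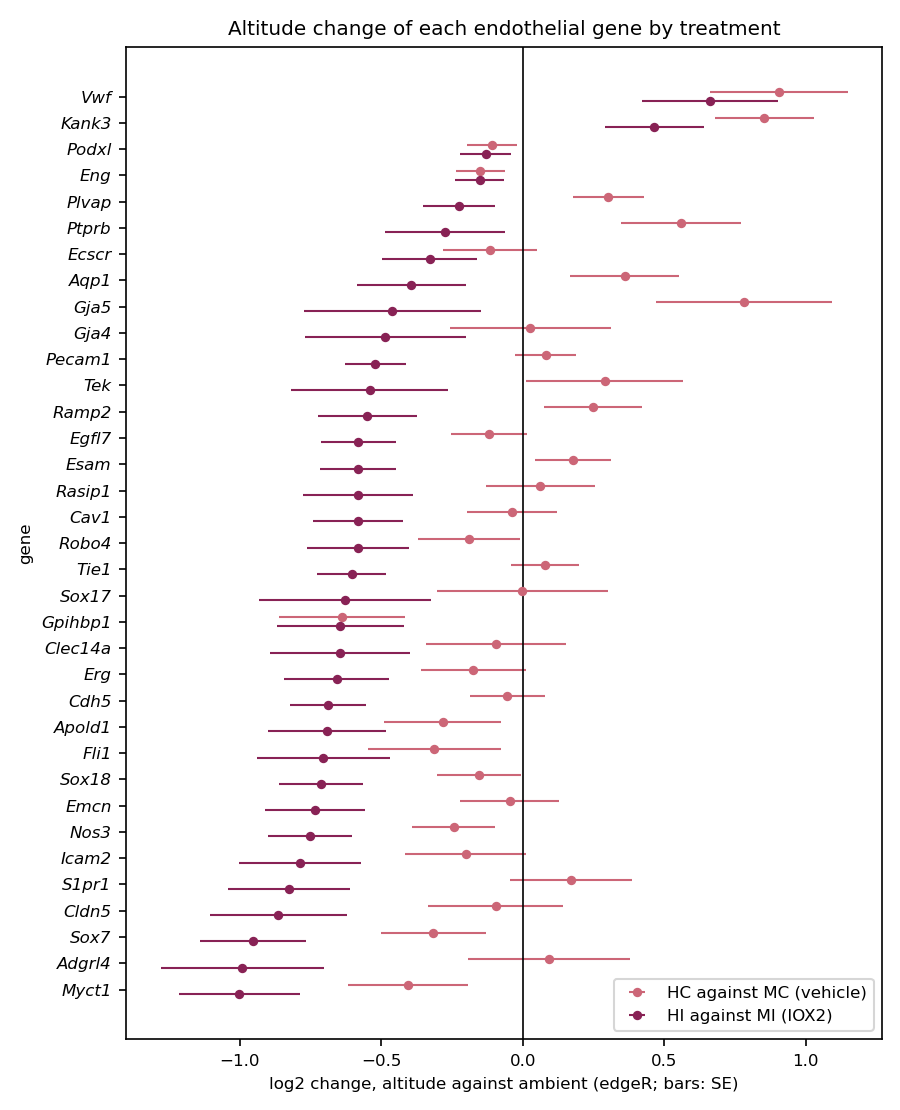
Log2 difference between 3500 m and 1500 m for each member, under vehicle (HC against MC) and under IOX2 (HI against MI), with bars for the standard error of the edgeR fit (3 tumours a group). Under IOX2, 33 of the 35 points are below 0, and under vehicle 20 are. Only Vwf and Kank3 lie above 0 under IOX2.

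The junction and adhesion genes were the group in which HI stood apart most evenly. Pecam1 encodes CD31, the platelet and endothelial adhesion molecule of the junction. Its level was 98.5, 101 and 101 CPM in MC, 142, 102 and 112 in MI, 112, 103 and 103 in HC, and 84.4, 85.1 and 78.9 in HI. All 3 HI tumours were below the 9 others. The log2 difference was −0.52 ± 0.11 (SE) in HI against MI and −0.36 ± 0.11 in HI against HC, with edgeR adjusted p-values of 0.124 and 0.964. Cdh5 encodes VE-cadherin, which holds the adherens junctions. It had 89.8, 97.5 and 89.4 CPM in MC, 117, 87.8 and 99.5 in MI, 101, 72.8 and 92.9 in HC, and 57.2, 69.1 and 62.4 in HI. HI again lay below every other tumour, though HC2 came close to it. The log2 difference of Cdh5 was −0.69 ± 0.13 in HI against MI (edgeR adjusted p = 0.122), −0.50 ± 0.13 in HI against HC (0.964) and −0.05 ± 0.13 in HC against MC (0.926). Esam, Icam2 and the claudin gene Cldn5 completed the group: all 5 genes were lower in HI than in MI and than in HC without overlap, and none was called by edgeR over the 12 libraries. In HI against MI, DESeq2 called all 5, among 379 of 24312 genes. There edgeR without MI2 called 4, all but Cldn5, among 520 of 15592 genes. Cldn5 was the one whose log2 difference between IOX2 and vehicle, averaged over altitude, was among the 3 lowest of the members, at −0.32 ± 0.17 (edgeR adjusted p = 0.759), and −0.14 without HC3. Its 12.8, 11.4 and 11.6 CPM in HI were close together, while HC ran from 15.2 to 27.6 and MC from 16.9 to 25.2.

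Among the receptors and surface proteins, all 10 were lower in HI than in MI and than in HC, and 5 and 2 of them did so without overlap. Tie1 encodes the orphan partner of the angiopoietin receptor. It had 31.9, 32.5 and 35.4 CPM in MC, 43.2, 32.3 and 34.4 in MI, 37.6, 30.3 and 37.4 in HC, and 25.2, 24.3 and 22.7 in HI. HI did not overlap any other group, and MC, MI and HC overlapped one another. The log2 difference of Tie1 was −0.60 ± 0.12 in HI against MI (edgeR adjusted p = 0.123) and −0.54 ± 0.12 in HI against HC (0.964), and averaged over altitude it was the 1 member at an unadjusted p under 0.05 for IOX2, at −0.20 ± 0.09 (edgeR adjusted p = 0.759). Tek encodes TIE2, the angiopoietin receptor itself, and was more scattered. It had 8.46, 7.11 and 6.18 CPM in MC, 10.3, 6.31 and 10.0 in MI, 12.2, 6.996 and 7.45 in HC, and 5.77, 7.97 and 4.58 in HI. HI overlapped all other groups, and the log2 difference in HI against MI was −0.54 ± 0.28 (edgeR adjusted p = 0.366).

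S1pr1, the endothelial receptor for sphingosine 1-phosphate, had 30.7, 26.8 and 23.5 CPM in MC, 52.9, 26.7 and 42.9 in MI, 35.4, 25.2 and 30.7 in HC, and 26.0, 22.3 and 20.9 in HI. It was high in MI1 and MI3, while MI2 was within the range of MC. Its log2 difference was 0.60 ± 0.22 in MI against MC (edgeR adjusted p = 0.492), or 0.38 without MI1, and −0.83 ± 0.22 in HI against MI (0.2). Ptprb encodes VE-PTP, the phosphatase that acts on TIE2 and VE-cadherin. It had 19.4, 17.9 and 15.9 CPM in MC, 27.9, 19.0 and 27.7 in MI, 33.8, 17.9 and 26.7 in HC, and 22.3, 21.3 and 18.1 in HI. MI1, MI3, HC1 and HC3 were above the rest, and MI2 and HC2 were within the range of MC. The log2 difference of Ptprb was 0.49 ± 0.21 in MI against MC (edgeR adjusted p = 0.492) and 0.56 ± 0.21 in HC against MC (0.336). Ramp2, which pairs with the calcitonin receptor-like receptor to bind adrenomedullin, had 9.44, 8.75 and 8.70 CPM in MC and 11.2, 9.58 and 9.03 in MI. In HC it had 13.7, 8.49 and 9.74, and in HI 7.28, 6.91 and 6.17. HI was below every other tumour, and the log2 difference in HI against HC was −0.65 ± 0.17 (edgeR adjusted p = 0.964), or −0.42 without HC1. In the GRCm38 annotation, Ramp2 shares 1103 exonic bases on 1 strand with Vps25, which ran from 51.2 to 71.5 CPM, so some reads could belong to either gene. Eng was the most even of the receptors, between 184 and 234 CPM in all tumours, with a log2 difference of −0.15 ± 0.09 in HI against MI and in HC against MC. Adgrl4, an adhesion G protein-coupled receptor of vessels, was the most scattered in MI, with 37.3, 21.3 and 53.7 CPM, and the 3 HI tumours (20.1, 18.8 and 17.6) were below all of them.

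All 5 transcription factor genes had a lower mean in HI than in MI. In HC the means of 4 were lower than in MC, while that of Sox17 was 3.98 CPM in both. The medians of the 5 log2 differences were −0.70 and −0.17. Sox7 had 4.28, 3.91 and 4.53 CPM in MC, 5.34, 5.24 and 4.96 in MI, 3.36, 3.22 and 3.64 in HC, and 2.17, 2.49 and 3.36 in HI. The 6 tumours at 3500 m were below all 6 at 1500 m, and MI was above MC without overlap. The log2 difference of Sox7 was −0.95 ± 0.19 in HI against MI (edgeR adjusted p = 0.122) and −0.63 ± 0.13 for altitude averaged over treatment (0.0691). DESeq2 called it in both, at adjusted p-values of 7.14e-05 and 0.000145, and edgeR called the averaged one without HI3 (0.0250). Its paralogue Sox17, an arterial factor, had 4.48, 3.63 and 3.82 CPM in MC, 3.84, 3.03 and 4.93 in MI, 5.32, 2.26 and 4.36 in HC, and 2.48, 3.06 and 2.09 in HI. HC spanned nearly the whole range of the 12 tumours, and HI overlapped both MI and HC. The log2 difference of Sox17 in HI against MI was −0.63 ± 0.30 (edgeR adjusted p = 0.349). Sox18 had 15.8, 16.7 and 16.6 CPM in HI, below all 3 MI tumours (28.2, 24.6 and 27.6), and Erg had 6.42, 7.28 and 5.33, below all 9 other tumours. Fli1 is also expressed in leukocytes. It had 17.8, 12.4 and 13.7 CPM in MC, 23.4, 12.3 and 22.2 in MI, 12.99, 11.7 and 10.6 in HC, and 9.63, 11.9 and 14.0 in HI. It was high in MI1 and MI3. The leukocyte gene Ptprc was also high in those tumours, at 210.1 and 190.0 CPM against 65.0 to 120.4 in the other 10. Summed over the 12 leukocyte markers, however, only MI1 stood out, at 835 CPM. MI3, at 646 CPM, lay within MC at 590 to 665. The part of leukocytes in the Fli1 values was not tested.

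The vesicle and glycocalyx genes divided. Emcn and Cav1, for endomucin and caveolin-1, were lower in HI than in MI and than in HC without overlap. Plvap had 96.1, 91.9 and 80.7 CPM in MC, 116, 97.6 and 95.0 in MI, 127, 94.4 and 109.7 in HC, and 98.0, 85.6 and 80.2 in HI. The 4 groups overlapped, and HC1 was the highest tumour. Its log2 difference was −0.22 ± 0.13 in HI against MI (edgeR adjusted p = 0.4), or −0.15 without MI1, and 0.04 ± 0.09 for altitude averaged over treatment (0.852), a value that turned to −0.018 without HC1 and ran up to 0.090 without HC2. Podxl, for the sialomucin podocalyxin, ran between 105 and 138 CPM in all 12 tumours, with a log2 difference of −0.13 ± 0.09 in HI against MI.

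The secreted genes went opposite ways. Vwf encodes von Willebrand factor, which endothelial cells store and release for platelet adhesion. It had 17.2, 12.4 and 20.02 CPM in MC, 19.2, 13.4 and 16.9 in MI, 36.6, 22.0 and 34.3 in HC, and 32.7, 25.3 and 20.3 in HI. All 6 tumours at 3500 m were above all 6 at 1500 m, HI3 by a small margin over MC3. The log2 difference was 0.91 ± 0.24 in HC against MC (edgeR adjusted p = 0.24), 0.66 ± 0.24 in HI against MI (0.269) and 0.78 ± 0.17 for altitude averaged over treatment (0.0702). Among other settings, that average was called by DESeq2 (adjusted p = 0.00143), by edgeR without the filter (0.0320) and without HI3 (0.0362), and over all alternatives its adjusted p ran from 0.00143 to 0.182. Platelets also hold Vwf, and 4 of 10 platelet markers passed the filter. Their summed level over all 10 was 15.7 to 19.2 CPM in MC, 15.5 to 21.1 in MI, 11.4 to 19.8 in HC and 22.2 to 26.1 in HI, most of it Pf4. The platelet-restricted Gp6 was at 0 in 11 of the 12 tumours, Gp5 was at most 0.124 CPM and Gp9 at most 0.102. In HC, the group with the highest mean of Vwf, the summed markers overlapped those of MC. In HI they were above those of MI without overlap, as Vwf was. The part of platelets in the Vwf values was not tested. Egfl7, the other secreted gene, was lower in HI than in MI and than in HC without overlap, and in the GRCm38 annotation it overlaps exons of Gm20532 and Agpat2.

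The arterial and capillary members were among the most variable. Gja5, for connexin 40, had 1.21, 1.34 and 0.814 CPM in MC, 1.80, 1.41 and 1.17 in MI, 2.54, 1.55 and 1.71 in HC, and 1.28, 1.01 and 0.896 in HI. HC was above MC and above HI without overlap. The log2 difference was 0.78 ± 0.31 in HC against MC (edgeR adjusted p = 0.357) and −0.86 ± 0.31 in HI against HC (0.964), the lowest of the members there. Gja4, for connexin 37, had a log2 difference of 0.03 ± 0.28 and −0.26 ± 0.28 in the same comparisons. Gpihbp1, which anchors lipoprotein lipase in capillaries, had 17.5, 18.6 and 29.5 CPM in MC, 16.4, 17.1 and 18.9 in MI, 14.9, 9.71 and 17.5 in HC, and 10.7, 11.7 and 11.1 in HI. HI was below both groups at 1500 m, and HC3 reached into them. Unlike most members, the log2 difference of Gpihbp1 with altitude had the same size under vehicle and under IOX2, −0.64 ± 0.22 in each (edgeR adjusted p = 0.308 and 0.258), though under vehicle it was −0.36 without MC3. Aqp1 had its highest level in HC1, 174 CPM, and its lowest in HI3, 81.6.

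The intracellular members hold the only call of edgeR over all 12 libraries. Kank3, of a family of cytoskeletal scaffold proteins, had 93.1, 75.2 and 87.7 CPM in MC, 79.3, 96.4 and 83.2 in MI, 174, 122 and 166 in HC, and 151, 109 and 98.1 in HI. All 6 tumours at 3500 m were above all 6 at 1500 m, with HI3 only just above MI2. The log2 difference was 0.85 ± 0.17 in HC against MC (edgeR adjusted p = 0.178) and 0.47 ± 0.17 in HI against MI (0.274). Averaged over treatment, Kank3 rose with altitude by 0.66 ± 0.12 on the log2 scale, 1.58-fold, with an edgeR adjusted p of 0.0446. It was the 1 member called in that comparison, where 76 of 15269 genes were (0.498%) and 0.236% of all genes rose. The call was close to its threshold: it was lost in limma-voom (0.0568), in limma on log2(FPKM + 0.1) (0.0531) and log2(FPKM + 1) (0.0678), and when any of MC1, MC2, MC3, MI1, MI3, HC1, HC3, HI1 or HI2 was left out (0.0768 to 0.135). Without MI1 and HC1 together the log2 difference was 0.58 and the adjusted p was 0.179. In the GRCm38 annotation, Kank3 shares 88 exonic bases with Rps28 on the other strand. Rps28 ran from 207 to 381 CPM and had a log2 difference of −0.03 with altitude (edgeR adjusted p = 0.885).

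Nos3 encodes the endothelial nitric oxide synthase. It had 14.9, 13.7 and 14.4 CPM in MC, 19.8, 13.4 and 15.3 in MI, 13.6, 11.5 and 11.2 in HC, and 9.05, 10.6 and 9.13 in HI. HI was below all 9 other tumours and HC was below MC, with HC1 overlapping MI. The log2 difference was −0.75 ± 0.15 in HI against MI (edgeR adjusted p = 0.122) and −0.50 ± 0.10 for altitude averaged over treatment (0.0695). Nos3 shares 294 exonic bases with Atg9b and 1040 with the antisense gene Gm15587, both on the opposite strand in GRCm38. Atg9b had log2 differences of the other sign, 0.82 in HI against MI and 0.50 averaged over treatment. Myct1, an endothelial membrane protein gene, had 4.66, 4.92 and 5.11 CPM in MC, 7.50, 5.51 and 6.24 in MI, 4.65, 3.57 and 2.88 in HC, and 2.90, 2.84 and 3.88 in HI. All tumours at 3500 m were below all at 1500 m, HC1 by the smallest margin. The log2 difference of Myct1 was −1.001 ± 0.21 in HI against MI (edgeR adjusted p = 0.136) and −0.70 ± 0.15 averaged over treatment (0.0702). Apold1, an early-response gene of endothelium, was lower in HI than in MI without overlap, as was Rasip1, which acts in vessel lumen formation, and neither was called by edgeR over the 12 libraries. Apold1 was called by edgeR without MI2 in HI against MI (adjusted p = 0.0333) and in the altitude average (0.0421), and in that average by DESeq2 (0.0394).

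The promoter sequences of 4 members are shown so that their elements can be compared. RefSeq (GRCm38.p6) gave entries for 18 of the 35 members, and of the 15 with 1 start site the 4 with the smallest p for altitude averaged over treatment were taken, which were Kank3, with a rise, and Myct1, Apold1 and Emcn, with lower levels. Each run is the 250 bases before the start, 5′ to 3′ on the plus strand, and capitals mark a match to any of the 8 motifs searched on both strands.
Kank3, chr17:33810273-33810522: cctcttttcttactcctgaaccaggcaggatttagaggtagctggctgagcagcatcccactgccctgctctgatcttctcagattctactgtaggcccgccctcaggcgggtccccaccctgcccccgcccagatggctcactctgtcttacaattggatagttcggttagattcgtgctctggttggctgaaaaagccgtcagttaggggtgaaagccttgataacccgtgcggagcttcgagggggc
Myct1, chr10:5593478-5593727: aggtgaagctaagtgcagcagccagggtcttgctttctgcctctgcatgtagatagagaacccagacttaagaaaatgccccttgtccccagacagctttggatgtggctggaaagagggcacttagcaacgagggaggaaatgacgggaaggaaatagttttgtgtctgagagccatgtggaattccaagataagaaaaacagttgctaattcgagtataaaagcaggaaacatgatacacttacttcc
Apold1, chr6:134981751-134982000: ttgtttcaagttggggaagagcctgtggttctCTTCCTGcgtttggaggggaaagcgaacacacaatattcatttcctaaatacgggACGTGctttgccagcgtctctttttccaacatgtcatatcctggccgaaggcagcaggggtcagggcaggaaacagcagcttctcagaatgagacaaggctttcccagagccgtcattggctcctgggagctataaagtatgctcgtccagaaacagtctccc
Emcn, chr3:137340828-137341077: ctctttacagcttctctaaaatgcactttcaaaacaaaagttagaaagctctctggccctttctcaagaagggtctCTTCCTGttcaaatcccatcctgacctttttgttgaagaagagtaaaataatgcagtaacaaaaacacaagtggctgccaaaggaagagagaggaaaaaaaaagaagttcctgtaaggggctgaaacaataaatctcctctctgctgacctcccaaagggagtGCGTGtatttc
Apold1 held the ETS motif CAGGAAG on the minus strand, read as CTTCCTG, at −218 to −212 from the start, and the HIF core ACGTG at −163 to −159. Emcn held the same ETS motif, also on the minus strand, at −174 to −168 and the HIF core GCGTG at −11 to −7. Kank3, the one that was higher at altitude, and Myct1 held none of the 8 motifs in this window. CAGGAAG stood in 7 of the 23 promoters of members (30.4%), against 10.8% of all 32841 promoters of that length. The 7 belonged to 6 of the 18 genes, since several starts of a gene were counted separately. The other motifs were fewer: ACGTG stood in 4 (17.4%, against 16.6%), GCGTG in 2 (8.70%, against 28.2%) and the SOX motif ACAATAG in 2 (8.70%, against 2.08%). The ETS motif CGGAAGT (4.92% of all promoters), the forkhead motif TGTTTAC (3.17%), the SOX motif ACAATGG (3.02%) and the AP-1 motif TGACTCA (4.46%) stood in 0. ACGTG and GCGTG differ in their first base, so no position counts for both on the same strand. A match describes letters, not binding.

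Averaged over treatment, 30 of the 35 members had a fitted log2 difference below 0 at 3500 m, as had 53.8% of all genes, and 5 above it, with a median of −0.31 against −0.02 over all genes. At an unadjusted p under 0.05, 19 members were lower, where 8.65% of all genes were, and 2 higher, where 8.64% were. Between all 6 tumours at 3500 m and all 6 at 1500 m, 2 members were higher without overlap (Vwf and Kank3), against 1.05% of all genes, and 2 lower (Sox7 and Myct1), against 0.897%. DESeq2 called 12 members there, among 845 of the 24312 genes in its fit. Without MI2, edgeR called 5 (Apold1, Fli1, Kank3, Myct1 and Nos3), among 203 of 15592 genes. Without HI3 it called 4 (Kank3, Myct1, Sox7 and Vwf), among 339 of 15592. The list of called members thus depended on the tool and on single tumours. The median was −0.27 without MI1, −0.40 without HC1 and −0.32 without both.

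Set against the other endothelial genes of the same tumour, Vwf and Kank3 stood further apart. The level of each other member was divided by the geometric mean of Pecam1, Cdh5, Tie1, Erg and Emcn, which was 31.3 to 47.0 CPM in the 9 tumours outside HI and 24.7, 28.1 and 23.2 in HI. Of the 30 other members, 3 had ratios at 3500 m that did not overlap those at 1500 m, all higher, and 0 were lower, where 3.62% of the 15264 genes other than the 5 markers were higher in this way and 0.059% lower. These 3 were chosen after their values were seen and carry no test. Vwf had ratios of 0.489, 0.335 and 0.569 in MC, 0.409, 0.386 and 0.459 in MI, 0.965, 0.704 and 0.943 in HC, and 1.32, 0.901 and 0.874 in HI, 2.16-fold higher at altitude. Kank3 had 2.65, 2.04 and 2.49, then 1.69, 2.77 and 2.26, then 4.61, 3.89 and 4.57, then 6.10, 3.87 and 4.23 in the same order, 1.96-fold higher. Plvap had 2.73, 2.49 and 2.29, then 2.46, 2.81 and 2.58, then 3.36, 3.02 and 3.01, then 3.96, 3.05 and 3.46, 1.29-fold higher. HI1 had the highest ratio of all 3 genes. Plvap appears here although its log2 difference with altitude averaged over treatment was only 0.04. Its mean was higher at altitude under vehicle (89.6 CPM in MC, 110.5 in HC) and lower under IOX2 (102.7 in MI, 87.9 in HI). The ratio shows unequal change of a gene and the 5 markers and not which of them moved.

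**Figure D4:**
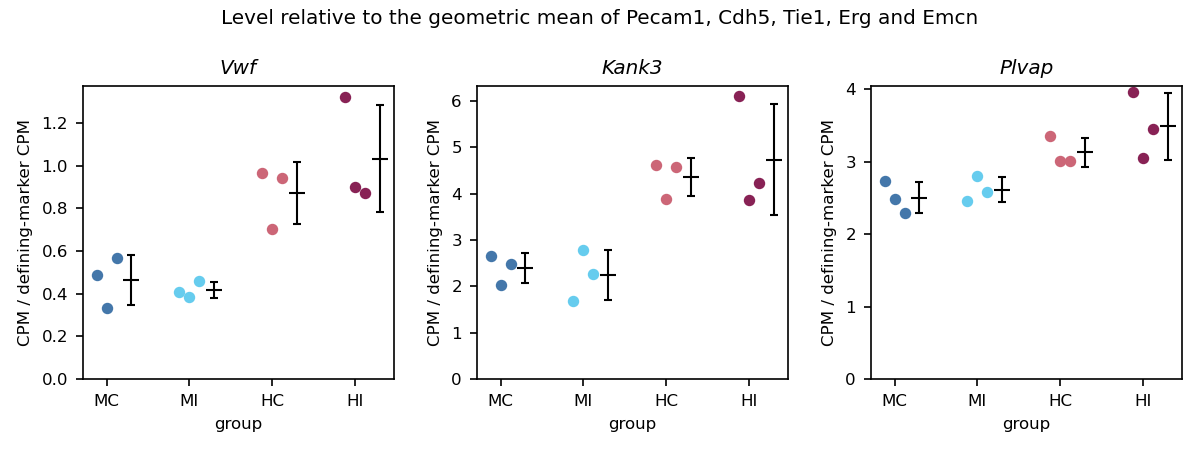
Level of Vwf, Kank3 and Plvap in each tumour divided by the geometric mean of Pecam1, Cdh5, Tie1, Erg and Emcn (no unit), by group, with points for tumours and bars for mean ± SD (n = 3). All 6 ratios at 3500 m lie above all 6 at 1500 m for each gene, by 2.16-fold, 1.96-fold and 1.29-fold on average.

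For IOX2 at 1500 m (MI against MC), 31 members had a log2 difference above 0, as had 50.8% of all genes, and 4 one below it, with a median of 0.16 against 0.01 over all genes. edgeR called no member there and 4 genes in all (0.0262%). At an unadjusted p under 0.05, 4 members were higher, where 5.61% of all genes were, and MI was above MC without overlap for Pecam1, Esam, Sox7 and Myct1, 4 of 35 against 4.75% of all genes. The direction leaned on MI1: without it the median was 0.07, without MI2 it was 0.27, and without MI1 and HC1 together 10 members were lower in place of 4. Pecam1 had a log2 difference of 0.24 ± 0.11 (edgeR adjusted p = 0.492), or 0.11 without MI1, with MI1 at 142 CPM and MI2 at 102, just above the highest MC tumour.

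For IOX2 at 3500 m (HI against HC), 33 members had a log2 difference below 0, as had 49.6% of all genes, and 2 one above it, Podxl and Fli1, with a median of −0.36 against 0.00 over all genes. edgeR called no member or other gene (0%). At an unadjusted p under 0.05, 16 members were lower, where 2.51% of all genes were, and 13 were lower without overlap, against 5.61%. These 13 were all 5 junction genes with Tie1, Ramp2, Erg, Cav1, Emcn, Egfl7, Gja5 and Nos3. Without HC1 the median was −0.28, and 32 to 34 members were lower over the alternatives. HI is shared by this comparison and by HI against MI, so the low values of HI enter both.

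The difference of the differences, altitude under IOX2 minus altitude under vehicle, was below 0 for all 35 members, from −1.24 ± 0.44 for Gja5 to −0.00 ± 0.12 for Eng, with a median of −0.58 against −0.02 over all genes. edgeR called no member and no other gene (0%), with adjusted p-values of 0.596 for most members. At an unadjusted p under 0.05, 19 members were below 0, where 4.17% of all genes were, and 52.4% of all genes had a value below 0. The median was −0.49 without MI1, −0.47 without HC1 and −0.36 without both, and 33 to 35 members were below 0 over the alternatives. S1pr1 (−0.996 ± 0.31), Adgrl4 (−1.08 ± 0.41) and Gja5 had the lowest values, and Eng, Gpihbp1 (−0.01 ± 0.31) and Podxl (−0.02 ± 0.13) were nearest to 0. Averaged over altitude, the log2 difference with IOX2 was below 0 for 28 members (48.3% of all genes) and above it for 7. Its median was −0.11 against 0.01, or −0.056 without MI2 or without HC1 and −0.17 without HC2. edgeR called no member (0.0393% of genes), 1 was lower at an unadjusted p under 0.05 (2.42% of genes), and the groups overlapped for all 35 members (0.177% of genes did not). The lowest of these were Gpihbp1 (−0.33 ± 0.16, or −0.19 without MC3), Sox17 (−0.33 ± 0.21, or −0.20 without HC1) and Cldn5. The highest were Fli1 (0.20 ± 0.17), S1pr1 (0.10 ± 0.15) and Myct1 (0.09 ± 0.15), all moved by single tumours. Fli1 was 0.13 without MI1, 0.14 without HI3 and 0.32 without MI2. S1pr1 was −0.012 without MI1, 0.039 without HC2, 0.052 without HI1 and 0.054 without MC3, and it was 0.15 without MC1, 0.16 without HC1 and 0.21 without MI2. Myct1 was 0.011 without HI3, 0.016 without HC3 and 0.032 without MI1, and it was 0.14 without MI2 and 0.19 without HC1.

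Of the vessel genes outside the members, 31 genes of VEGF, angiopoietin and Notch signalling and other genes of vessels were set beside them, some of them known from earlier results of these tumours. Averaged over treatment 26 were lower and 5 higher, where 53.8% of all genes were lower, with a median log2 difference of −0.24. Of these 31, 6 fell and none rose by edgeR's adjusted p under 0.05, where 0.498% of all genes were called: Vash1 (−0.68, adjusted p = 0.00531), an inhibitor of angiogenesis, Cd93 (−0.64, 0.00858), Mcam (−0.55, 0.0224), the Notch target Hey1 (−1.30, 0.0276), the Notch ligand Dll4 (−0.45, 0.0391) and Bcl6b (−0.66, 0.04). The members and this list share no gene, and all 31 were tested. Since some of the 31 were known beforehand from these tumours, the count of calls among them carries no test. In HI against MI 23 of the 31 were lower, with a median of −0.44, and 0 were called.

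Markers of cells that lie near endothelium moved with the members in part. The 13 mural cell markers, of pericytes and smooth muscle, summed to 488 to 560.1 CPM in MC, 536 to 871 in MI, 483 to 586 in HC and 402 to 512 in HI, and 11 of 13 were lower in HI than in MI with a median of −0.52 (−0.30 without MI1) and none called by edgeR. Averaged over treatment the lowest p among them belonged to Rgs5 (−0.69, edgeR adjusted p = 0.128), Pdgfrb (−0.24, 0.176) and Acta2 (−0.32, 0.252). The 7 lymphatic endothelial markers summed to 27.7 to 50.3 CPM in MC, 36.0 to 139 in MI, 43.8 to 46.6 in HC and 27.4 to 45.8 in HI, with the 139 in MI1. Of these, 6 were lower in HI than in MI, with a median of −2.97 (−1.33 without MI1) and none called by edgeR, and averaged over treatment Flt4 (−0.61, edgeR adjusted p = 0.105), Prox1 (−2.21, 0.119) and Reln (−1.75, 0.233) led. Prox1, the factor that defines lymphatic endothelium, was at 0.0783 to 3.64 CPM. The part of these cells in the members' values was not tested.

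**Figure D5:**
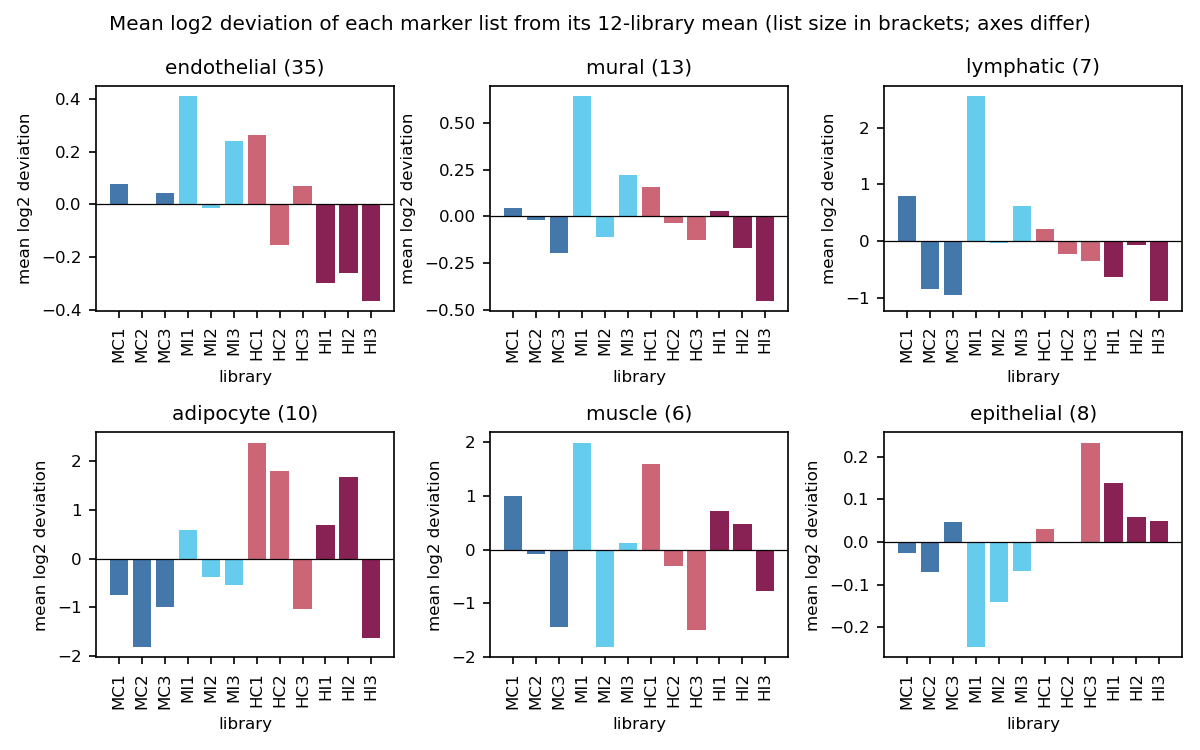
Mean over each of 6 gene lists of the log2 CPM relative to the gene's mean over the 12 tumours, 1 bar per tumour, coloured by group, with axes that differ between panels. The endothelial bars are lowest in the 3 HI tumours, at −0.26 to −0.37, and MI1 has the highest bar in the endothelial, mural, lymphatic and muscle panels.

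Among the other lists, fibroblast markers (7 of 7, median −0.27), muscle markers (6 of 6, −0.56) and leukocyte markers (9 of 12, −0.29) were also lower in HI than in MI, with none called by edgeR. Without MI1 these medians were −0.13, 0.73 and −0.063, with 7 of 7, 0 of 6 and 7 of 12 lower. Their summed levels overlapped between groups, with fibroblast markers at 6203 to 9305 CPM in MC, 6924 to 10311 in MI, 7060 to 12354 in HC and 7307 to 7881 in HI. Summed leukocyte markers were 590.0 to 665 CPM in MC, 606 to 835 in MI, 522 to 687 in HC and 589 to 708 in HI, and all 8 epithelial markers had a log2 difference above 0 for altitude averaged over treatment, with none called. Summed erythroid markers were 19.8 to 21.1 CPM in MC, 87.6 to 123 in MI, 56.7 to 104.8 in HC and 167 to 319 in HI. They were highest in HI, the lowest group for 30 of the 35 members. They were also higher in MI than in MC, although MI was the highest group for 25 members. Of the 6 erythroid markers tested, edgeR called 5 as higher with altitude averaged over treatment, where 0.498% of all genes were called. It called 5 with IOX2 averaged over altitude (0.0393% of all genes) and 4 in MI against MC (0.0262%). In the altitude average edgeR gave Hba-a1 1.51 on the log2 scale (adjusted p = 0.0209), Hbb-bs 1.43 (0.0257) and Alas2 1.70 (0.0401). No gene of the other marker lists was called by edgeR over the 12 libraries in any comparison. Their leading log2 differences with altitude averaged over treatment were −1.63 for Cd4, 1.14 for S100a8 and −0.62 for Ptprc among leukocyte markers, and 3.23 for Retn, 1.73 for Fabp4 and 3.17 for Lep among adipocyte markers. They were −1.01 for Lum, −0.20 for Pdgfra and −0.18 for Dcn among fibroblast markers, and 0.22 for Krt8, 0.16 for Krt18 and 0.24 for Epcam among epithelial markers. They were −0.63 for Myh4, −0.43 for Acta1 and 0.14 for Tnnt3 among muscle markers, and 0.20 for Pf4, −0.29 for Itga2b and 0.16 for Gp1bb among platelet markers. The part of any of these cells in the members' values was not tested.

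Some members share exonic bases with a neighbour in the GRCm38 annotation. Besides Kank3, Nos3, Ramp2 and Egfl7, these were Eng with Fpgs (61 bases), Gja5 with Gpr89 (165), Sox17 with Gm37587 (804), Ecscr with 1700066B19Rik (62) and Rasip1 with Izumo1 (654) and antisense transcripts. Whether strand was used in counting is not given in the sources used here, so reads in the shared bases could belong to either gene of a pair. Izumo1, which overlaps Rasip1 on the same strand, was at most 0.0306 CPM.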

How the data were processed

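RNA of 12 tumours was sequenced as pairs of 150 bases. The submitters' processing notes name the mouse build GRCm39 and list HTSeq 0.11.2, HISAT2 2.1.0, fastp 0.20.1, R 3.5.1 and DESeq2 1.22.2, and what each did, which annotation was used and whether counting kept strand is not given in the sources used here. Per gene, the authors deposited raw whole-number counts, which were tested, and FPKM values per gene made by the authors, which served for levels between genes and for an alternative. Each library is a different mouse with its own tumour, per the labels, and groups were taken from the labels.

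The members and gene lists were chosen with earlier results of these data known. Counts were scaled by TMM and filtered by expression, and 1 mean per group was fitted over all 12 libraries with edgeR 4.0.16 quasi-likelihood tests (limma 3.58.1, R 4.3.3), with 8 residual degrees of freedom and Benjamini-Hochberg adjustment over 15269 genes in each of 7 comparisons, at 0.05. Named members were any called, the 3 with the smallest p in each comparison of 2 groups, the ones farthest from the member median in the averaged comparisons, and Pecam1, Cdh5, Tie1, Tek, Vwf, Plvap, Sox17 and Nos3. In other lists, genes called and the 3 with the smallest p for altitude were named. An adjusted p printed as a bare number in parentheses is the edgeR one unless another tool is named. CPM and means ± SD are TMM-scaled. Whether replicate numbers pair the samples was checked: same-numbered samples of HC and MC deviated together, with correlations from 0.153 to 0.278 over genes and 6 of 6 samples closest to their own number, and the other pairs of groups did not all pass 0.1. The labels do not say what a number shares.

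Alternatives were DESeq2 1.42.0, limma-voom, limma on log2(FPKM + 0.1) and log2(FPKM + 1), DESeq2 size factors, other filters, only the groups compared, the replicate block and each library left out. Leaving out MI1 and HC1 together, and the marker lists without either, were added after seeing the data. No genome of the files' build was used, so positions are given only for promoters, from RefSeq with GRCm38.p6, and exon overlaps come from GENCODE for GRCm38.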

Additional observations from a re-analysis of the deposited data

How the results depend on the processing

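Depth was 31661685 to 40019343 counts a library. With 3 tumours a group, an exact permutation test of 1 gene in 1 group against another could not go below p = 0.1. Calls between such groups therefore depend on the variance shared across genes. That limit does not apply to the averaged comparisons, which have more tumours on each side. Of 795 settings of 37 named values, 753 kept direction and side of the threshold, 26 passed it newly, 13 lost it (all of them Kank3 with altitude) and 3 turned sign: Plvap with altitude, to −0.018 without HC1 and −0.0024 without HI1 (−0.018 to 0.090 over single libraries left out), and S1pr1 with averaged IOX2, to −0.012 without MI1 (−0.012 to 0.21). The causes were not tested.

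Genes called were, with DESeq2, 307 in HC against MC, 379 in HI against MI, 22 in MI against MC, 18 in HI against HC, 30 for the interaction, 845 for averaged altitude and 11 for averaged IOX2. Without a filter they were 2, 16 and 166 in HC against MC, HI against MI and averaged altitude. With only the groups compared they were 63 in HC against MC and 2 in MI against MC. With the replicate block they were 13 in HC against MC, 3 in HI against HC and 155 for averaged altitude, and the block changed no other count by more than 1.5 times. In HI against MI, DESeq2 size factors gave 1 and a filter of 1 CPM gave 2. limma-voom gave 0 in MI against MC and 20 for averaged altitude, and limma on log2(FPKM + 1) gave 14 there. Without MI1 and HC1 they were 2 in MI against MC and 4 for averaged altitude.

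Members called were 2, 16 and 12 with DESeq2 in HC against MC, HI against MI and averaged altitude. For averaged altitude they were 0 with limma-voom, with both FPKM fits and without MI1 and HC1, and 2 without a filter and with the replicate block (Kank3 and Vwf, the latter with an adjusted p of 0.0315 under the block). The members' median interaction was −0.40 in limma on log2(FPKM + 1) and −0.36 without MI1 and HC1.

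Leaving out 1 library at a time, genes called ranged over 0 to 40 in HC against MC, 0 to 520 in HI against MI, 0 to 6 in MI against MC, 0 to 0 in HI against HC, 0 to 2 for the interaction, 2 to 339 for averaged altitude and 4 to 6 for averaged IOX2. Members called ranged over 0 to 1 in HC against MC, 0 to 16 in HI against MI and 0 to 5 for averaged altitude. Their medians ranged over −0.12 to 0.07 in HC against MC, −0.68 to −0.49 in HI against MI, 0.07 to 0.27 in MI against MC, −0.51 to −0.28 in HI against HC, −0.69 to −0.47 for the interaction, −0.40 to −0.27 for averaged altitude and −0.17 to −0.06 for averaged IOX2.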
